A study of Mus musculus with 12 samples.

Results

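The 38 genes described here were listed for DNA replication and cell division. By their listed role, 22 were grouped as replication genes and 16 as mitosis genes. The replication group also takes in nucleotide supply, the cyclin gene Ccne1 and genes listed as chromatin copying, among them Ezh2 and Hmgb2. Ccna2, a cyclin of S phase and early mitosis, was grouped with mitosis. The genes were followed in the mouse cerebellum at birth (P0) and at postnatal days 15 (P15) and 30 (P30), in Ts1Cje mice and in euploid mice. The members were given as a list of gene names, and all probe sets annotated to these names were taken on all 12 arrays. Of the 38 genes, 35 had a probe set of their own (46 probe sets of 12488 on the array, which names 8251 genes in this way). The other 3 had none: the cyclin gene Ccnb1, the spindle checkpoint kinase gene Bub1b, and Tyms, the thymidylate synthase gene, whose 2 probe sets are also annotated to the pseudogene Tyms-ps. Of the 35 genes, 23 had a mean signal above the filter of 20.1 and entered the tests (25 probe sets of 7453 tested), 15 of them replication genes and 8 mitosis genes.

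The Ts1Cje mouse, used as a model of Down syndrome, carries a segmental trisomy of chromosome 16. Total RNA of whole cerebella was pooled by genotype and stage into 6 pools: Ts1Cje at P0, P15 and P30 with 3 cerebella each, and euploid at the same stages with 3, 3 and 2 cerebella. Each pool was hybridised to 2 Affymetrix arrays, numbered 1 and 2, and strain and sex are not given in the labels. The 2 arrays of a pool share their RNA, so the pool was the unit of the tests below, with 1 alternative named as such: 2 pools per stage and 3 per genotype, and 1 Ts1Cje pool against 1 euploid pool within a stage. Each genotype and stage has 1 pool, so no spread between pools of the same kind was measured. The p-values below rest on how far the 6 pools depart from adding a genotype and a stage effect. That departure mixes differences between pools with any genotype difference that changes with stage, and limma moderated it over all tested probe sets.

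As background, a dividing cell loads the MCM helicase onto replication origins, opens the DNA in S phase, copies it with polymerases held by the sliding clamp PCNA, and then separates the copies under Cdk1 and its cyclins. In the newborn mouse cerebellum most dividing cells are granule neuron progenitors of the external granular layer, which multiply during the first postnatal weeks, leave the cycle and migrate inwards, until the layer is gone. Genes of S phase are commonly switched on by E2F factors, and those of mitosis later in the cycle through other promoter elements. In RNA of whole tissue, fewer cells of a type and less RNA per cell cannot be told apart.

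Values are MAS5 signals, a linear brightness per probe set. The 12 arrays had median signals of 30.4 to 36.2, and their means after trimming 2% at each end lay between 100.05 and 100.06. The median correlation between log2 signals was 0.972 for the 6 pairs of arrays of one pool, 0.967 for 12 pairs of the same stage and other genotype, and 0.864 for 48 pairs of different stages. Neuronal markers of the cerebellum fitted the tissue label: 9 of 9 tested markers were called higher at P15 than at P0, and their summed signal was 3311 to 3909 at P0, 11509 to 16151 at P15 and 13171 to 16282 at P30. Son, a gene of the trisomic segment, was higher in the Ts1Cje pool at each stage, by 0.91, 0.51 and 0.81 on the log2 scale. The Ts1Cje P15 arrays stood apart in Xist, which coats the silenced X chromosome in female cells, with 105.6 and 77.6 against 1.4 to 6.7 on the other 10 arrays.

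**Figure D1:**
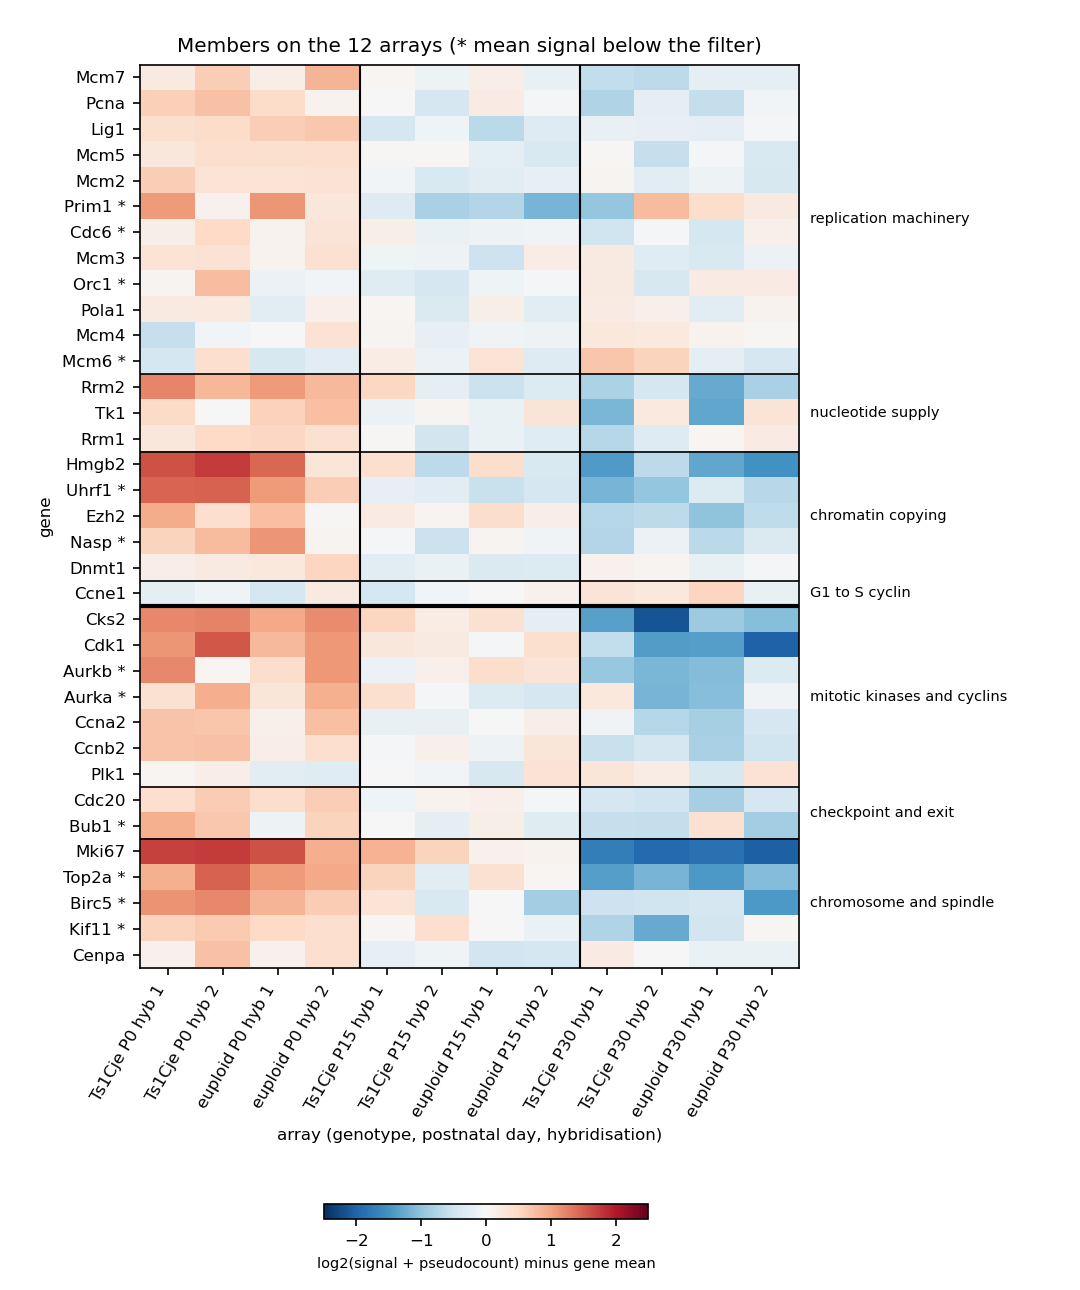
Signals of the 35 measured genes (rows, by role; replication above the thick line, mitosis below) on the 12 arrays (columns), as log2(signal + 4.6) minus the mean of the gene over all arrays. Red is above and blue below that mean, and an asterisk marks the 12 genes with a mean signal below the filter; most rows pass from red at P0 to blue at P30, in both genotypes.

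Between P0 and P15, 10 of the 23 tested genes fell and none rose. The 5 replication genes among them were Hmgb2, Rrm2, Lig1, Mcm2 and Dnmt1, of 15 tested. The 5 mitosis genes were Mki67, Cdk1, Cks2, Cenpa and Ccna2, of 8 tested. Over all 7453 probe sets, limma called 14.4% lower and 13.6% higher at P15 (adjusted p under 0.05). Calls over the whole array thus ran in both directions in near equal number, and those of the members in 1. Differences are given as log2(signal + 4.6), which understates those of dim genes, with the standard error of the additive fit over 2 pools per stage. The median difference of the 23 genes was -0.53, against -0.03 over all tested probe sets, and 21 of the 23 were negative.

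Of the replication machinery, 2 members were called, a helicase subunit and a ligase. Mcm2, a subunit of the helicase ring, read 69.4 and 56.7 (Ts1Cje) and 56.0 and 57.2 (euploid) at P0, 41.1 and 32.2 (Ts1Cje) and 34.9 and 37.3 (euploid) at P15, and 45.8 and 35.6 (Ts1Cje) and 39.5 and 31.9 (euploid) at P30. All 4 arrays of P15 lay below all 4 of P0, and the P30 arrays overlapped those of P15. The difference between P15 and P0 was -0.65 ± 0.19 (adjusted p = 0.0314). Lig1, the ligase that joins the fragments of the lagging strand, read 64.3 and 67.3 (Ts1Cje) and 75.9 and 79.0 (euploid) at P0, 34.7 and 44.4 (Ts1Cje) and 28.5 and 37.5 (euploid) at P15, and 41.6 and 41.1 (Ts1Cje) and 40.6 and 46.9 (euploid) at P30. Its P15 and P30 arrays overlapped and both lay below those of P0, with a difference of -0.91 ± 0.20 (adjusted p = 0.00965).

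For the supply of deoxynucleotides, Rrm2, the small and cell cycle controlled subunit of ribonucleotide reductase, read 51.8 and 38.7 (Ts1Cje) and 46.3 and 37.8 (euploid) at P0, 30.3 and 16.2 (Ts1Cje) and 12.2 and 14.5 (euploid) at P15, and 9.4 and 13.3 (Ts1Cje) and 5.5 and 9.2 (euploid) at P30. The arrays of P0 were all above those of P15, and at P15 the 2 Ts1Cje arrays lay above the euploid ones. Rrm2 fell by 1.12 ± 0.25 (adjusted p = 0.0119).

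In the group listed as chromatin copying, Hmgb2, a DNA-bending protein abundant in dividing cells, read 62.2 and 69.0 (Ts1Cje) and 54.8 and 22.6 (euploid) at P0, 24.5 and 9.3 (Ts1Cje) and 25.2 and 12.4 (euploid) at P15, and 3.7 and 9.4 (Ts1Cje) and 4.3 and 3.1 (euploid) at P30. One euploid P0 array was within the range of P15, and the 2 arrays of the Ts1Cje P15 pool differed by 1.07 on the log2 scale. Hmgb2 still had the largest fall of the tested members at this step, -1.32 ± 0.30 (adjusted p = 0.0122). The signal filter used the mean of all arrays. For Hmgb2 and Rrm2 every P30 array and some P15 arrays lay below it, so their pass rested mainly on P0. The effect of this on the ranking of falls was not tested. In the fit without the filter, Uhrf1 (-1.52) and Prim1 (-1.40) fell further than Hmgb2. Dnmt1, which copies DNA methylation onto the new strand, read 303.4 and 317.5 (Ts1Cje) and 323.0 and 394.6 (euploid) at P0, 222.5 and 241.6 (Ts1Cje) and 209.0 and 211.8 (euploid) at P15, and 291.5 and 283.3 (Ts1Cje) and 235.5 and 263.1 (euploid) at P30. It was lowest at P15, with all arrays below those of P0 (-0.58 ± 0.16, adjusted p = 0.0271). All P30 arrays but 1 euploid array, at 235.5, lay above those of P15.

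Of the mitosis genes, Mki67, which encodes the Ki-67 protein that coats mitotic chromosomes, read 59.9 and 61.1 (Ts1Cje) and 54.3 and 32.1 (euploid) at P0, 31.5 and 24.2 (Ts1Cje) and 16.6 and 16.4 (euploid) at P15, and 1.3 and 0.5 (Ts1Cje) and 0.8 and 0.2 (euploid) at P30. These values come from its probe set 99457_at, and its 3 stages did not overlap. The difference between P15 and P0 was -1.08 ± 0.28 (adjusted p = 0.021). Cdk1, the kinase that drives entry into mitosis, read 59.2 and 82.4 (Ts1Cje) and 47.6 and 58.1 (euploid) at P0, 31.5 and 29.9 (Ts1Cje) and 24.5 and 34.5 (euploid) at P15, and 14.9 and 6.7 (Ts1Cje) and 6.8 and 2.7 (euploid) at P30. Its stages did not overlap either, and it fell by 0.92 ± 0.24 (adjusted p = 0.0241) up to P15.

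Cks2, a small partner of Cdk1, read 69.4 and 71.1 (Ts1Cje) and 57.6 and 67.7 (euploid) at P0, 42.2 and 32.1 (Ts1Cje) and 37.3 and 23.0 (euploid) at P15, and 8.0 and 2.6 (Ts1Cje) and 12.5 and 10.7 (euploid) at P30, again with 3 separate stages. Its first difference was -0.92 ± 0.29 (adjusted p = 0.0464). Ccna2, the cyclin of S phase and early mitosis, read 142.0 and 139.7 (Ts1Cje) and 93.1 and 146.5 (euploid) at P0, 74.6 and 74.2 (Ts1Cje) and 84.9 and 95.4 (euploid) at P15, and 80.0 and 50.4 (Ts1Cje) and 45.8 and 62.3 (euploid) at P30. Here 1 euploid P0 array at 93.1 was below 1 euploid P15 array at 95.4, and the difference was -0.62 ± 0.19 (adjusted p = 0.0399). Cenpa, the histone H3 variant of centromeres, read 35.8 and 57.6 (Ts1Cje) and 36.0 and 45.6 (euploid) at P0, 27.8 and 30.3 (Ts1Cje) and 22.3 and 23.0 (euploid) at P15, and 38.8 and 32.6 (Ts1Cje) and 29.0 and 29.0 (euploid) at P30. It was low at P15 and not lower at P30, where 1 Ts1Cje array at 38.8 exceeded 2 arrays of P0; its difference between P15 and P0 was -0.65 ± 0.20 (adjusted p = 0.0425).

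All 4 arrays of P15 lay below all 4 of P0 for 11 of the 23 genes, which adds Mcm5, Rrm1 and Cdc20 to 8 of the called ones, against 19.1% of all tested probe sets. The number of calls depended on single pools. It was 2 without the euploid P0 pool, 3 without the Ts1Cje P0 pool, 4 without the euploid P15 pool and 5 without the Ts1Cje P15 pool. It was 4 when only the second array of each pool was used and 5 with only the first. The direction of all called differences stayed negative in each of these fits.

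**Figure D2:**
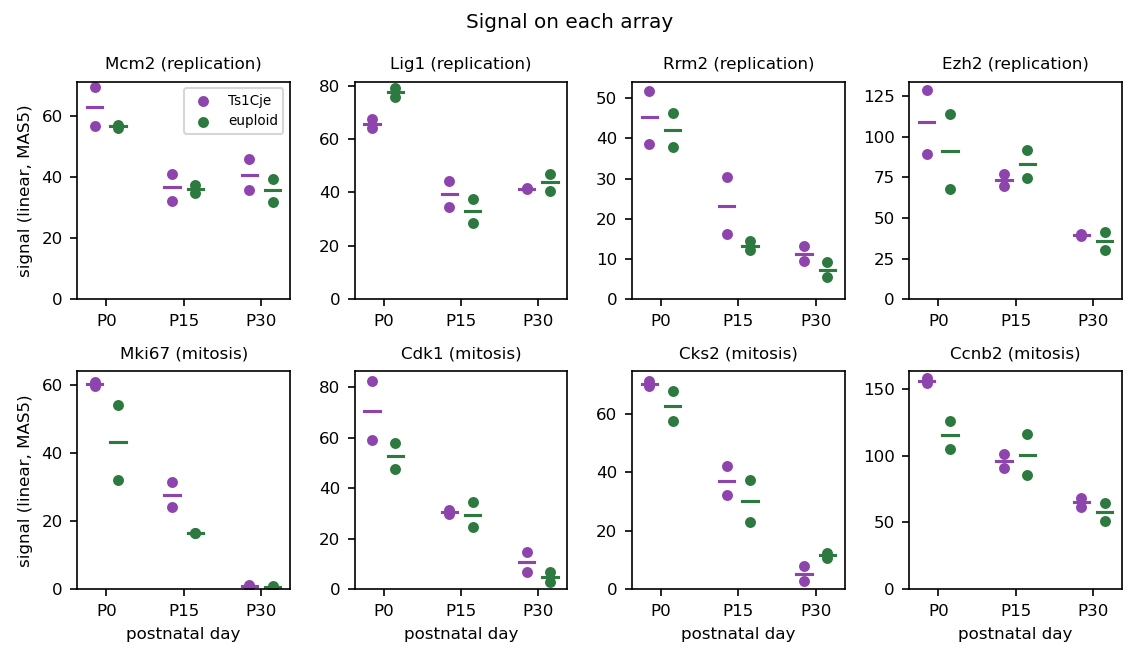
Signal of 8 genes on each array (linear MAS5 signal, axis from 0) by postnatal day, with Ts1Cje in purple left of euploid in green; a point is 1 array and a bar the mean of the 2 arrays of a pool. Mcm2 and Lig1 are low from P15 on, while Mki67, Cdk1 and Cks2 are lower again at P30. Ezh2 overlaps between P0 and P15 and is lower at P30.

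Promoters of the called genes that fell most between P0 and P15 are shown, since they hold the elements known for timing transcription within the cycle. The windows are those of RefSeq (GRCm38.p6), 300 bases each from 250 before to 50 after the transcription start, on the strand of the gene and 5′ to 3′. Capitals mark matches, on either strand, to the E2F words TTTCGCGC, TTTGGCGC, TTTCCCGC and TTTGGCGG, to the cell cycle homology region (CHR, TTTGAA or TTCGAA) and to the CCAAT box (CCAAT). No 2 matches overlapped in these windows. They are Mki67 (chr7:135716330-135716629, minus strand), Cdk1 (chr10:69352863-69353162, minus strand), Cks2 (chr13:51644982-51645281, plus strand), Cenpa (chr5:30666636-30666935, plus strand), Hmgb2 (chr8:57511593-57511892, plus strand), Rrm2 (chr12:24708004-24708303, plus strand) and Mcm2 (chr6:88898731-88899030, minus strand).
Mki67: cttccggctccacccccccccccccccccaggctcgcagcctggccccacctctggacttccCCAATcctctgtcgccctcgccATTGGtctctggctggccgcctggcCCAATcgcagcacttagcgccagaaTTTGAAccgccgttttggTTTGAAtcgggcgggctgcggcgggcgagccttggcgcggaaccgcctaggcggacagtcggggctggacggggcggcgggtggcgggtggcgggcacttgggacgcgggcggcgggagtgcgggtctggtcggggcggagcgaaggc
Cdk1: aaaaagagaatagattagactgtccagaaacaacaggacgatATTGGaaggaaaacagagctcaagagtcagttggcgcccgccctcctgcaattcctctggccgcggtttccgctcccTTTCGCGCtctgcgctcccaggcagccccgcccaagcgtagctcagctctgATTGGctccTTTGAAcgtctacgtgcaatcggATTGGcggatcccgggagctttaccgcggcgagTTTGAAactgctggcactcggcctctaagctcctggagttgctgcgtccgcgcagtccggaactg
Cks2: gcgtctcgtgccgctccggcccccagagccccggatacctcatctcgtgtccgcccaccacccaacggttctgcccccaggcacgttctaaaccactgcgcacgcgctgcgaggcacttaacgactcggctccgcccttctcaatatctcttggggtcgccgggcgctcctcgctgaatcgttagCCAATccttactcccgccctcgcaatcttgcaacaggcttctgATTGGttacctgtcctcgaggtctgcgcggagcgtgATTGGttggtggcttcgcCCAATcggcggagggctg
Cenpa: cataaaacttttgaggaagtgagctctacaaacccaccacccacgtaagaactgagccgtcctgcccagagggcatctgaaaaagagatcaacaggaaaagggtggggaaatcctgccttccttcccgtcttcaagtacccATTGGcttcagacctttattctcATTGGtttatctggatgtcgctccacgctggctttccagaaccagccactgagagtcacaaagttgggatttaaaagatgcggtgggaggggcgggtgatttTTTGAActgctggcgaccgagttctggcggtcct
Hmgb2: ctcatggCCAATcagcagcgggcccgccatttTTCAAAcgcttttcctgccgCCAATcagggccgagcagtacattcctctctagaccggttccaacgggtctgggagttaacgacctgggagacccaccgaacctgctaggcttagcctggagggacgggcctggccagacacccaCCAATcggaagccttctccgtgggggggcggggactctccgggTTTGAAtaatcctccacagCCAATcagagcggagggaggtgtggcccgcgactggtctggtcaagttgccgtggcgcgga
Rrm2: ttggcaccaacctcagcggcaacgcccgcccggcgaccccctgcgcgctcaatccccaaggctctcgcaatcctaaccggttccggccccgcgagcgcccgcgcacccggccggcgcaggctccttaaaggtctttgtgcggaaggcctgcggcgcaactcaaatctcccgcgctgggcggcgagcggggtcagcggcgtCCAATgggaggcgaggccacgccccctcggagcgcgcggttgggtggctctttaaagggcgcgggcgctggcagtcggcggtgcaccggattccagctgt
Mcm2: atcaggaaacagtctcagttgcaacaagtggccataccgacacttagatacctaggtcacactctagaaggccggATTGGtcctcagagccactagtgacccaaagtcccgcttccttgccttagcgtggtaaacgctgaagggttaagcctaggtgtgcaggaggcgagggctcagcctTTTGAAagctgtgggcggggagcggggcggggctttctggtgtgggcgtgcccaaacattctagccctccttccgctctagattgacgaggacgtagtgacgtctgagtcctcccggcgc

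The window of Mki67 held 2 CHR words and 3 CCAAT boxes, and that of Cdk1 held 2 CHR words, 3 CCAAT boxes and 1 E2F word. Cks2 held 4 CCAAT boxes and none of the other words, Cenpa 1 CHR word and 2 CCAAT boxes, Hmgb2 2 and 4, and Mcm2 1 and 1. Rrm2 held 1 CCAAT box. For Lig1, which has 3 windows listed and is not shown, the one searched held no match.

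Across all members with a window (35, without Ccna2, Mcm4 and Aurkb), an E2F word was found in 8 of 21 replication genes (Mcm3, Mcm5, Mcm6, Mcm7, Orc1, Cdc6, Pola1 and Ezh2) and in 1 of 14 mitosis genes (Cdk1), against 2.42% of the windows of 27025 genes. A CHR word was found in 5 of 21 replication genes and in 11 of 14 mitosis genes, against 19.4% of all windows. Each of these 16 windows also held a CCAAT box, a pair found in 7.7% of all windows. Of the 5 replication genes called lower at P15, none had an E2F word, and Hmgb2, Mcm2 and Dnmt1 had a CHR word and a CCAAT box. A match describes these letters only, and no binding was measured.

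Between P15 and P30, 4 of the 23 genes were called lower and none higher: Mki67, Cdk1 and Cks2 of the 8 mitosis genes and Ezh2 of the 15 replication genes. Over all tested probe sets 3.13% were called lower and 1.61% higher at this step. Mki67 fell by 2.30 ± 0.28 (adjusted p = 0.00451), to signals of 0.2 to 1.3 on the 4 arrays of P30. Cks2 fell by 1.60 ± 0.29 (adjusted p = 0.024), and Cdk1 fell by 1.57 ± 0.24 (adjusted p = 0.0139). Ezh2, the catalytic subunit of the complex that methylates histone H3 at silenced genes, read 129.2 and 89.7 (Ts1Cje) and 114.2 and 68.0 (euploid) at P0, 77.2 and 69.6 (Ts1Cje) and 91.9 and 74.8 (euploid) at P15, and 38.7 and 40.4 (Ts1Cje) and 30.5 and 41.3 (euploid) at P30. Its P0 and P15 arrays overlapped (-0.31 ± 0.18, adjusted p = 0.254), and all P30 arrays lay below them, with a difference between P30 and P15 of -0.97 ± 0.18 (adjusted p = 0.0269).

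All 4 arrays of P30 lay below all 4 of P15 for 7 of the 23 genes, against 10.2% of all tested probe sets. Besides the 4 called genes these were Mcm7, Ccnb2 and Cdc20. Without the Ts1Cje P30 pool 2 genes were called at this step. Using only the second array of each pool 2 were called, using only the first 7, and with all 12 arrays, the pool as a random block and the hybridisation number as a block 7. That last fit estimated a correlation of -0.0107 within pools, so that it took the 2 arrays of a pool as separate samples. The call of Mki67 ended when the mean of its 2 probe sets was taken (-1.08, adjusted p = 0.052). As the Mki67 signals of P30 lie below the added 4.6, the size of its difference depends on it: -4.32 with a pseudocount 10 times smaller and -1.07 with one 4 times larger, where Cks2 had -0.96 and Cdk1 -0.91.

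Markers of other tissues moved at the same step. Those of the choroid plexus (3 of 3 tested) were called higher at P30 than at P15, and their summed signal was 147 to 179 at P15 and 789 to 1080 at P30. Of 6 meningeal markers, Col1a1 and Col3a1 were called lower (33.3%, against 3.13% of all tested probe sets). Col1a1 had -1.54 ± 0.25 (adjusted p = 0.0157) and Col3a1 -1.12 ± 0.25 (adjusted p = 0.0447). A second Col1a1 probe set had -0.73. The others were not called, with 0.35 for Col1a2, 0.17 for Dcn, -0.01 for Lum and -0.18 for Igf2. Igf2 alone had a mean signal of 1485 and so weighs most in the sum. The meningeal sum was 1786 to 2458 at P15 and 1718 to 1995 at P30. Neuronal markers had 0 calls of 9 at this step. The part of these tissues in the stage differences was not tested.

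Over the whole month, from P0 to P30, 15 of the 23 genes fell and none rose, where limma called 19.6% of all tested probe sets lower and 19.4% higher. They were 9 of 15 replication genes and 6 of 8 mitosis genes. Mki67 (-3.38 ± 0.28, adjusted p = 4.62e-05), Cks2 (-2.51 ± 0.29, adjusted p = 0.000274) and Cdk1 (-2.49 ± 0.24, adjusted p = 0.000115) led the mitosis genes, and Hmgb2 (-2.49 ± 0.30, adjusted p = 0.000338), Rrm2 (-1.81 ± 0.25, adjusted p = 0.000779) and Ezh2 (-1.28 ± 0.18, adjusted p = 0.000879) the replication genes. With 4 times the pseudocount Mki67 had -1.86, Cks2 -1.67, Cdk1 -1.62, Hmgb2 -1.53 and Rrm2 -1.16, and with a pseudocount 10 times smaller Mki67 had -5.54. With the mean of its 2 probe sets Mki67 had -1.70. All of these kept the call. In Cks2, Cdk1, Hmgb2, Rrm2 and the brighter Mki67 probe set, all P30 arrays lay below the signal filter. These genes passed it through the earlier stages, and the effect of this on the ranking was not tested. Lig1 and Mcm2 fell over this span by 0.69 and 0.60. Ccna2 fell by 1.08 ± 0.19 (adjusted p = 0.00236).

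A further 6 genes were called over this span and at neither single step. Pcna, the sliding clamp, read 331.5 and 366.3 (Ts1Cje) and 302.9 and 231.6 (euploid) at P0, 220.3 and 161.2 (Ts1Cje) and 251.4 and 214.0 (euploid) at P15, and 128.3 and 186.1 (Ts1Cje) and 142.1 and 206.3 (euploid) at P30, and fell by 0.88 ± 0.19 (adjusted p = 0.00671). Mcm5 of the helicase read 100.2 and 109.7 (Ts1Cje) and 108.4 and 110.2 (euploid) at P0, 82.5 and 82.8 (Ts1Cje) and 69.2 and 61.2 (euploid) at P15, and 83.2 and 53.2 (Ts1Cje) and 79.3 and 60.9 (euploid) at P30, with a fall of 0.62 ± 0.18 (adjusted p = 0.024). Mcm7, of the same ring, read 59.7 and 79.3 (Ts1Cje) and 57.1 and 94.5 (euploid) at P0, 52.3 and 45.4 (Ts1Cje) and 57.2 and 43.8 (euploid) at P15, and 31.4 and 30.1 (Ts1Cje) and 41.9 and 41.5 (euploid) at P30, with -0.91 ± 0.19 (adjusted p = 0.00566). In these 3 genes every P30 array was below every P0 array.

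Ccnb2, a cyclin that pairs with Cdk1, read 154.6 and 157.8 (Ts1Cje) and 105.2 and 125.7 (euploid) at P0, 90.7 and 101.5 (Ts1Cje) and 85.4 and 116.1 (euploid) at P15, and 61.8 and 68.4 (Ts1Cje) and 51.2 and 64.4 (euploid) at P30 and fell by 1.08 ± 0.18 (adjusted p = 0.00175). Cdc20, which activates the ubiquitin ligase that starts anaphase, read 80.3 and 93.9 (Ts1Cje) and 81.3 and 93.6 (euploid) at P0, 54.4 and 63.2 (Ts1Cje) and 64.7 and 57.8 (euploid) at P15, and 43.0 and 40.7 (Ts1Cje) and 31.1 and 43.2 (euploid) at P30 and fell by 1.07 ± 0.17 (adjusted p = 0.0017). Both had negative differences at each step, without a call at either. Tk1, the thymidine kinase of the salvage pathway, read 58.8 and 40.5 (Ts1Cje) and 63.0 and 72.5 (euploid) at P0, 36.7 and 43.2 (Ts1Cje) and 35.9 and 52.1 (euploid) at P15, and 16.1 and 49.3 (Ts1Cje) and 13.9 and 52.5 (euploid) at P30. Its call (-0.92 ± 0.20, adjusted p = 0.00796) rested on the first hybridisation of each pool. The 2 arrays of a pool differed by 1.38 in Ts1Cje and 1.63 in euploid cerebella at P30 on the log2 scale, and over 15 other fits its difference ranged from -1.74 to -0.09, with the call kept in 12.

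The 8 tested genes with no call over this span were unlike each other. Cenpa and Dnmt1 were called at the first step, and their differences between P30 and P0 were -0.37 and -0.31. Rrm1, the large subunit of ribonucleotide reductase, had -0.62 ± 0.24 (adjusted p = 0.068), with signals of 42.0 to 50.4 at P0, 23.5 to 34.6 at P15 and 18.7 to 39.8 at P30. Mcm3 of the helicase had -0.44 ± 0.18 (adjusted p = 0.0911). Pola1, the catalytic subunit of the polymerase that starts each strand, had -0.05 and stayed between 15.1 and 25.5 on all arrays.

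Positive differences between P30 and P0 without a call were found for 3 genes. Ccne1, cyclin E of the step into S phase, read 77.7 and 85.9 (Ts1Cje) and 67.8 and 109.9 (euploid) at P0, 67.9 and 89.2 (Ts1Cje) and 94.3 and 100.3 (euploid) at P15, and 118.2 and 113.5 (Ts1Cje) and 136.4 and 81.3 (euploid) at P30, and had 0.38 ± 0.17 (adjusted p = 0.121). Mcm4 had 0.22 and Plk1, a kinase of spindle and cytokinesis, 0.20. None of the 3 was called in the fit over the pools. When only the first array of each pool was used, Ccne1 was called higher at P30 and 13 members lower.

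At the first step the median difference was -0.52 in 15 replication genes and -0.64 in 8 mitosis genes, and at the second -0.01 in replication genes and -0.60 in mitosis genes, against -0.03 and 0.06 over all tested probe sets. The median of the replication genes minus that of the mitosis genes was thus 0.12 at the first step and 0.59 at the second. These are descriptions with no test. At the second step the replication median was -0.28 in Ts1Cje and -0.03 in euploid cerebella, and the mitosis median -0.49 in Ts1Cje and -0.73 in euploid cerebella, so a replication median near 0 was found in euploid cerebella alone. By genotype the gap was 0.30 in Ts1Cje and 0.02 in euploid cerebella at the first step, and 0.21 in Ts1Cje and 0.70 in euploid cerebella at the second (SD over the 2 genotypes 0.34). The gap at the first step changed sign to -0.05 with a stricter filter on signal and to -0.02 without the Ts1Cje P15 pool, while that at the second was 0.33 to 0.72 in all fits.

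For the 15 genes called between P0 and P30, the part of the log2 change that had taken place by P15 had a median of 59.99% in 9 replication genes and 38.8% in 6 mitosis genes. These are not shares of linear signal, which were not computed. For genes dim at P30 they depend on the pseudocount. With the smaller pseudocount Mki67 had -4.32 for P30 minus P15, out of -5.54 for P30 minus P0. With the larger one it had -1.07 out of -1.86. The ranges overlapped. Replication genes ran from Ezh2 at 24% to Lig1 at 131.6%, where a value over 100 means that P15 was lower than P30. Mitosis genes ran from Mki67 at 31.9% to Ccna2 at 57.5%. The choice of genes called between P0 and P30 left out 2 that were called at the first step and lay less low at P30. These were the mitosis gene Cenpa (-0.65 at P15 and -0.37 at P30, against P0) and the replication gene Dnmt1 (-0.58 and -0.31). Mcm2 (109.6%) and Mcm5 (83.6%) stood near Lig1, Pcna (59.99%) and Rrm2 (62.2%) in the middle, and Cdk1 (37.0%) and Cks2 (36.5%) near Mki67.

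By role, the 8 replication machinery genes had medians of -0.50 and 0.02 at the 2 steps, with 2 and 0 called. The 5 mitotic kinase and cyclin genes had -0.62 and -0.64, with 3 and 2 called. The 3 genes of nucleotide supply had -0.65 and -0.49, and the 3 of chromatin copying -0.58 and -0.97, where Ezh2 was called at the second step and Hmgb2 had -1.17 ± 0.30 (adjusted p = 0.0683).

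**Figure D3:**
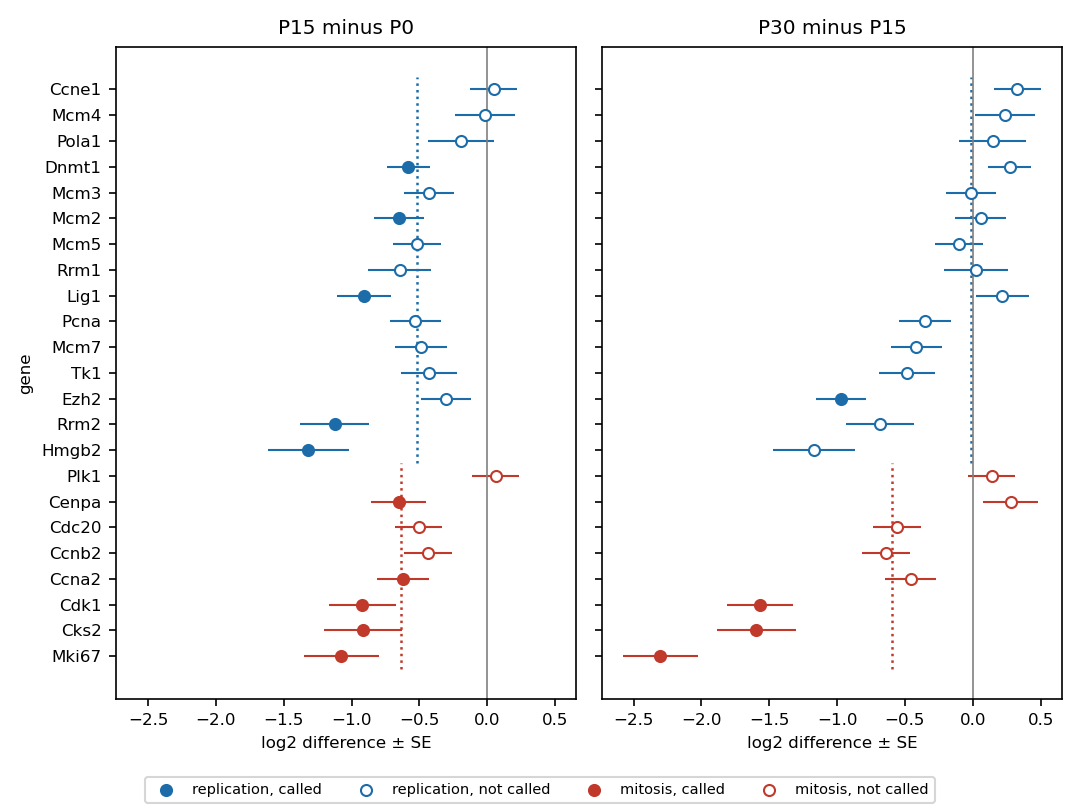
Log2 difference ± SE of the 23 tested genes for P15 minus P0 (left) and P30 minus P15 (right), replication genes in blue and mitosis genes in red; filled points were called (limma, adjusted p under 0.05) and dotted lines are the group medians. The blue median moves from -0.52 to -0.01, and the red one stands at -0.64 and -0.60.

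Below the signal filter lay 12 members, 6 of replication (Mcm6, Prim1, Cdc6, Orc1, Uhrf1 and Nasp) and 6 of mitosis (Aurka, Aurkb, Bub1, Top2a, Kif11 and Birc5). Just outside it were Birc5, Cdc6 and Aurkb with mean signals of 17.8, 18.6 and 19.6, and just inside Pola1, Rrm2 and Mki67 with 21.1, 23.8 and 24.9. In a fit without the filter, 4 of these 12 genes were called lower at P15 than at P0, 1 at P30 than at P15 and 8 at P30 than at P0. Among all 35 genes the counts in that fit were 10, 3 and 22, against 8.95%, 0.998% and 12.3% of 12422 probe sets. By class, 10 of 21 replication genes and 12 of 14 mitosis genes were called lower at P30 than at P0.

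Top2a, the topoisomerase that untangles sister chromatids, read 22.5 and 35.8 (Ts1Cje) and 26.0 and 23.5 (euploid) at P0, 16.8 and 7.4 (Ts1Cje) and 14.3 and 10.6 (euploid) at P15, and 1.0 and 1.9 (Ts1Cje) and 0.8 and 2.3 (euploid) at P30. It was called at both steps, with -0.92 ± 0.24 (adjusted p = 0.0338) at the first and -1.44 ± 0.24 (adjusted p = 0.0315) at the second. Uhrf1, which guides Dnmt1 to newly copied DNA, read 42.4 and 43.0 (Ts1Cje) and 31.1 and 21.7 (euploid) at P0, 10.3 and 9.5 (Ts1Cje) and 7.0 and 8.3 (euploid) at P15, and 3.1 and 4.2 (Ts1Cje) and 9.0 and 6.0 (euploid) at P30, with -1.52 ± 0.32 (adjusted p = 0.0158) at the first step. Birc5, or survivin, part of the complex that corrects chromosome attachment, read 37.5 and 39.6 (Ts1Cje) and 30.4 and 25.3 (euploid) at P0, 19.8 and 10.3 (Ts1Cje) and 14.5 and 6.0 (euploid) at P15, and 8.9 and 9.1 (Ts1Cje) and 9.9 and 2.5 (euploid) at P30, with -1.18 ± 0.24 (adjusted p = 0.0138).

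Prim1, the primase subunit, was called at the first step (-1.40 ± 0.27, adjusted p = 0.0105), yet its arrays of P0 ran from 9.5 to 23.6 and those of P30 from 2.1 to 18.1. Between P0 and P30 the mitotic kinase genes Aurkb, Aurka and Bub1 fell (-1.58, -1.13 and -0.91), as did the spindle motor gene Kif11 (-1.15) and the histone chaperone gene Nasp (-1.11). Mcm6, Cdc6 and Orc1, which load or form the helicase, were not called (0.32, -0.47 and -0.10). Their mean signals were 2.77, 18.6 and 6.72.

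More than 1 probe set was present for 9 members, and in 2 of them, Mki67 and Plk1, a second one passed the filter. The second Mki67 probe set, 161931_r_at, read 24.7 and 28.4 (Ts1Cje) and 16.1 and 27.8 (euploid) at P0, 21.7 and 27.9 (Ts1Cje) and 21.8 and 13.8 (euploid) at P15, and 22.2 and 24.6 (Ts1Cje) and 18.5 and 29.8 (euploid) at P30. It did not follow 99457_at, with differences of -0.16 at the first step and 0.15 at the second. For Plk1, 161292_f_at read 85.2 and 92.7 (Ts1Cje) and 68.0 and 66.4 (euploid) at P0, 82.7 and 78.5 (Ts1Cje) and 61.0 and 107.8 (euploid) at P15, and 102.4 and 94.6 (Ts1Cje) and 61.8 and 107.3 (euploid) at P30, with differences of 0.06 and 0.14. Its second probe set, 101350_g_at, gave -0.37 and -0.02, and another below the filter, 93099_f_at, -0.24 and -0.14.

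The second Mcm3 probe set, 100062_at, also below the filter, had -0.61 and -0.31, and the one tested, 160496_s_at, -0.43 and -0.01. The further probe set of Mcm5 had -0.80 and 0.19 at a mean signal of 8.84. Between P30 and P0, without the filter, 100062_at was called lower (-0.92 ± 0.26, adjusted p = 0.0362), where the tested Mcm3 probe set was not. The further probe sets of Lig1, Dnmt1, Tk1 and Rrm1 had mean signals of 10.3, 8.29, 8.29 and 2.08, and differences between P15 and P0 of 0.15, -0.02, -0.16 and -0.09. Of the 2 further probe sets of Bub1, 97095_at had a mean signal of 3.59 and was called lower at P30 than at P0 (-0.83 ± 0.24, adjusted p = 0.0402, limma without the filter), with 0.5 to 1.2 on the arrays of P30 and 2.5 to 8.3 on those of P0. The other, at a mean signal of 0.75, had -0.13.

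**Figure D4:**
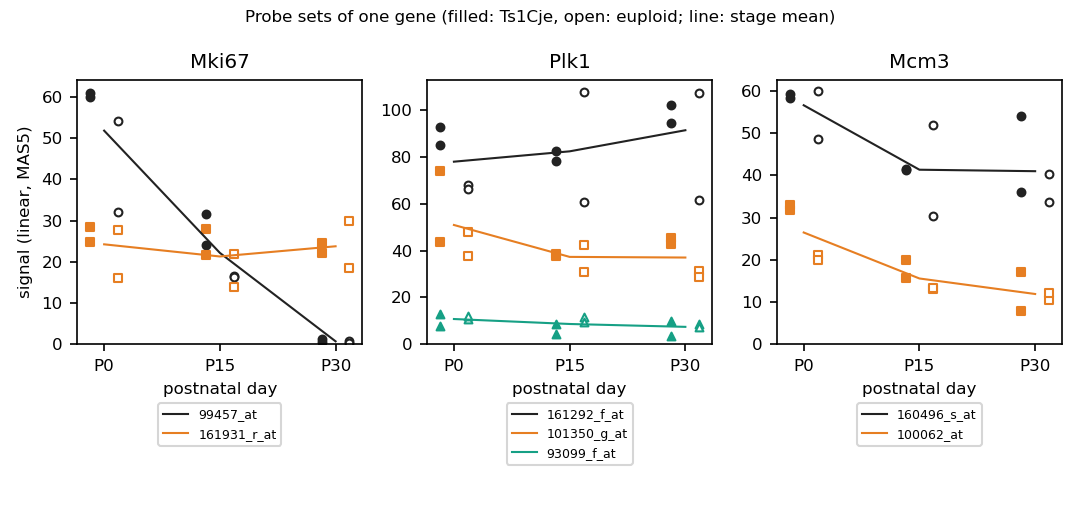
Linear MAS5 signal of each probe set of Mki67, Plk1 and Mcm3 by postnatal day; a point is 1 array (filled for Ts1Cje, open for euploid), and lines join the stage means. For Mki67 one probe set passes to signals near 0 at P30 and the other stays between 13.8 and 29.8.

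The genotype comparison asked whether the trisomic cerebellum held more or less RNA of these genes. Over the 3 stages, limma called none of the 23 genes and 0 of 7453 probe sets (0%), and 217 probe sets (2.91%), none of them a member, had an unadjusted p under 0.05. Without the trend in the variance fit 0 were called and 266 had such a p. The lowest unadjusted p of a member was 0.0902, for Cdk1. Son, of the trisomic segment, was not called by limma either (0.75 ± 0.12, adjusted p = 0.481). The absence of calls among members therefore cannot show that they do not differ. Of the 23 genes 15 were positive (higher in Ts1Cje), with a median of 0.08, against -0.001 over all tested probe sets. The medians were 0.05 for replication and 0.19 for mitosis genes, and the largest differences were those of Mki67 (0.40 ± 0.23), Cdk1 (0.38 ± 0.20), Rrm2 (0.37 ± 0.21) and Hmgb2 (0.34 ± 0.24).

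A change of the genotype difference with postnatal day was not called either: 0 of 7453 probe sets (0%) and no member, with 193 (2.59%) at an unadjusted p under 0.05, or 228 without the trend. The smallest unadjusted p of a member was 0.112, for Cks2. Within a stage the median absolute difference between the genotypes was 0.20 over the members and 0.18 over all tested probe sets.

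Within single stages 1 pool stands against 1 pool, so the values below have no replicate check. At P0, both Ts1Cje arrays lay above both euploid arrays for 8 of the 23 genes (Pcna, Pola1, Hmgb2, Cdk1, Ccnb2, Cks2, Plk1 and Mki67) and below them for 4 (Mcm4, Lig1, Tk1 and Dnmt1), against 22.4% and 21.9% of all tested probe sets. Of the 8 mitosis genes, 7 were positive at P0, with a median of 0.32, and 5 had separate arrays, all above. Of the 15 replication genes 3 were above and 4 below, with a median of -0.06. Ccnb2 (0.43), Cdk1 (0.38), Plk1 (0.38) and Mki67 (0.49) had the larger values among the mitosis genes, and Hmgb2 (0.80) and Mcm4 (-0.50) were the extremes of all 23.

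At P15, 5 genes were above (Mcm5, Rrm2, Dnmt1, Cenpa and Mki67) and 2 below (Ccne1 and Ccna2), against 21% and 18.5% of all tested probe sets. The median was 0.01, and the extremes were Mki67 (0.61) and Ccne1 (-0.30). At P30, 5 were above (Mcm4, Pola1, Rrm2, Dnmt1 and Cenpa) and 3 below (Mcm7, Rrm1 and Cks2), against 19.6% and 19.8%. The median was 0.17, with 17 of 23 positive, and the extremes were Cdk1 (0.70) and Cks2 (-0.76). The Cdk1 arrays overlapped, at signals of 14.9 and 6.7 in Ts1Cje and 6.8 and 2.7 in euploid cerebella.

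No tested member had separate arrays in the same direction at all 3 stages. The share of all tested probe sets with such a pattern was not counted, so this is not a result about the members. Rrm2 was above at P15 and P30, Mki67 at P0 and P15, and Pola1 at P0 and P30. Cenpa and Dnmt1 were above at P15 and P30, and Dnmt1 was below at P0. Among the 12 genes under the filter, 5 were above and 0 below at P0 (Orc1, Uhrf1, Bub1, Kif11 and Birc5), 3 above and 2 below at P15, and 1 above and 2 below at P30. Of the tested probe sets, all past the filter, 22.4% were above and 21.9% below at P0, 21% and 18.5% at P15, and 19.6% and 19.8% at P30. The shares among probe sets under the filter were not counted. Birc5 had 0.42 at each stage, with separate arrays at P0 alone.

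Other tissues in the samples differed between the pools of a stage. At P0, markers of the meninges (6 of 6 tested) summed to 2522 and 2819 in Ts1Cje and 1817 and 1864 in euploid cerebella, those of the choroid plexus (3 of 4 on the array) to 153 and 166 in Ts1Cje and 388 and 405 in euploid cerebella, and those of the red cell lineage (4 of 6 on the array, Epb42 at 1.2 to 4.5 on all arrays) to 3129 and 3426 in Ts1Cje and 4501 and 4919 in euploid cerebella. Microglial markers (6 of 6 on the array, 4 tested) summed to 245 and 258 in Ts1Cje and 328 and 340 in euploid cerebella. Neuronal markers summed to 3311 and 3909 in Ts1Cje and 3594 and 3750 in euploid cerebella. Granule progenitor markers (7 of 8 on the array) summed to 535 and 545 in Ts1Cje and 436 and 534 in euploid cerebella, and the one that defines these cells, Atoh1, read 1.0 to 6.1 on all 12 arrays. At P15 the red cell sum was 2538 and 2982 in Ts1Cje and 6387 and 8053 in euploid cerebella, and the microglial sum 371 and 376 in Ts1Cje and 274 and 289 in euploid cerebella. The meningeal sum of P15 was 2268 and 2458 in Ts1Cje and 1786 and 2249 in euploid cerebella, and that of the choroid plexus 156 and 179 in Ts1Cje and 147 and 149 in euploid cerebella. At P30 the red cell sum was 2560 and 2884 in Ts1Cje and 4528 and 4933 in euploid cerebella, and that of the choroid plexus 976 and 1080 in Ts1Cje and 789 and 800 in euploid cerebella, while the meningeal and microglial sums overlapped. The part of these tissues in the genotype values was not tested.

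**Figure D5:**
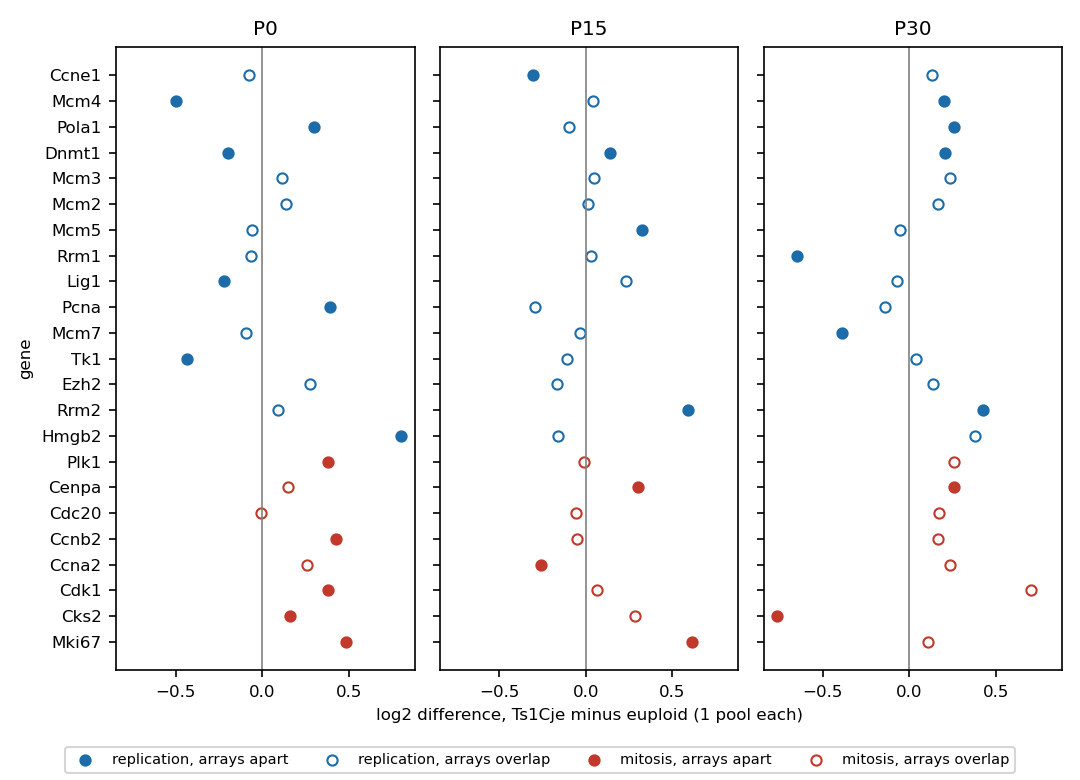
Log2 difference, Ts1Cje minus euploid, of the 23 tested genes at P0, P15 and P30 (1 pool of each genotype per stage), replication genes in blue and mitosis genes in red; filled points have both Ts1Cje arrays on one side of both euploid arrays. At P0, 5 of the 8 red points are filled, all to the right of 0. No gene is filled on the same side in all 3 panels, a pattern not counted over all tested probe sets.

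Other genes of the same pathways were counted from lists, with 3 called rises and 3 called falls at most named for each. Of 24 other replication factors tested, 5 fell and 1 rose between P0 and P15 (median -0.10), 0 were called between P15 and P30, and 5 fell and 1 rose between P0 and P30. The 5 falls are 20.8% of the list, against 14.4% of all tested probe sets at the first step and 19.6% over the whole span. Chaf1b, a chromatin assembly subunit encoded in the trisomic segment, fell by 1.03 ± 0.31 (adjusted p = 0.0392) at the first step, Rfc3 of the clamp loader by 0.94 ± 0.25 (adjusted p = 0.0249) and Slbp, which binds histone mRNA, by 0.87 ± 0.18 (adjusted p = 0.0081). Rpa1, which covers single-stranded DNA in replication and repair, rose, with 0.95 ± 0.17 (adjusted p = 0.00369) and signals of 75.3 to 130.6 at P0, 179.4 to 203.4 at P15 and 227.1 to 247.9 at P30. Between P0 and P30 the falls were led by Rfc3 (-1.20), Orc6 of the origin complex (-1.03) and Slbp (-0.69), and Rpa1 rose by 1.22.

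Of 25 other mitosis factors tested, 9 fell and 1 rose at the first step (median -0.37), 5 fell and 0 rose at the second (median -0.22), and 15 fell and 2 rose over the whole span (median -0.76). The falls are 36%, 20% and 60% of this list, against 14.4%, 3.13% and 19.6% of all tested probe sets. At the first step Stmn1, a microtubule regulator that immature neurons also express, fell by 1.57 ± 0.17 (adjusted p = 0.000337), the Cdk1 partner gene Cks1b by 1.51 ± 0.28 (adjusted p = 0.00468) and Kif23, a motor of cytokinesis, by 1.18 ± 0.33 (adjusted p = 0.0313). At the second step Kif20a and Prc1, both of the central spindle, fell by 1.74 ± 0.26 (adjusted p = 0.0117) and 1.63 ± 0.22 (adjusted p = 0.00761), and Nusap1 of the spindle by 1.51 ± 0.31 (adjusted p = 0.0336). Over the whole span the largest falls were those of Cks1b (-2.97), Kif20a (-2.64) and Kif23 (-2.60).

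Anln, a scaffold of the cleavage furrow that myelinating oligodendrocytes also express, rose instead. It read 21.3 and 18.8 (Ts1Cje) and 9.0 and 15.3 (euploid) at P0, 66.6 and 47.1 (Ts1Cje) and 95.7 and 56.3 (euploid) at P15, and 62.2 and 61.7 (Ts1Cje) and 112.5 and 99.3 (euploid) at P30, and its difference between P15 and P0 was 1.77 ± 0.30 (adjusted p = 0.00291). Over the whole span it rose by 2.09, and Pttg1, or securin, rose by 0.51. Markers of oligodendrocyte precursors (2 of 5 on the array) summed to 401 to 611 at P0, 444 to 546 at P15 and 305 to 379 at P30. The 2 moved in opposite directions. In limma, Sox10 rose at the first step (0.78 ± 0.15, adjusted p = 0.00602). Pdgfra fell at the second (-0.83 ± 0.15, adjusted p = 0.0254), where its other probe set had 0.04.

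Regulators of the step into S phase had a median difference of -0.19 at the first step and -0.06 at the second, and the steps were not compared by a test. At the first step Cdk4 (-0.40, adjusted p = 0.0668), Cdk2 (-0.56, adjusted p = 0.0877) and Mycn (-0.57, adjusted p = 0.0904) fell short of a call. The largest positive differences there were those of E2f1 (0.34) and Ccnd3 (0.33). Of 13 tested genes of the G1 cyclins, E2F and Rb, 0 were called at the first step, 2 fell at the second (15.4%, against 3.13% of all tested probe sets) and 5 fell over the whole span (38.5%, against 19.6%). At the second step they were Mycn, a transcription factor of granule progenitors (-1.40 ± 0.22, adjusted p = 0.0142), and Tfdp1, the partner of E2F (-0.72 ± 0.16, adjusted p = 0.0437). Mycn read 92.7 and 107.4 (Ts1Cje) and 87.8 and 72.2 (euploid) at P0, 55.5 and 49.7 (Ts1Cje) and 75.7 and 55.9 (euploid) at P15, and 16.1 and 16.2 (Ts1Cje) and 22.7 and 22.9 (euploid) at P30. Over the whole span Mycn (-1.98), Cdk2 (-1.0) and Rb1 (-0.98) led. Of 4 tested granule progenitor markers, 1 was called lower over this span, Mycn, and 1 higher, Ptch1 (1.08 ± 0.19, adjusted p = 0.00246). The summed signal of the 7 such markers on the array was 436 to 544.7 at P0, 553.5 to 811.2 at P15 and 672.4 to 770.5 at P30.

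Among 11 tested cell cycle inhibitors, 6 rose (54.5%, against 13.6% of all tested probe sets) and 1 fell at the first step (median 0.76), 0 were called at the second, and 6 rose and 2 fell over the whole span. The 6 were Btg1, Btg2, Gadd45a, Gadd45b, Gadd45g and Ccng2. Of the 4 tested genes of the Cdkn families, which bind and block cyclin-dependent kinases, none was called higher. Cdkn1a and Cdkn2c were not called, and Cdkn1c and Cdkn2d fell over the whole span. Cdkn1b, below the filter at a mean signal of 17.4 and so not tested, read 5.1 to 12.3 at P0, 10.9 to 26.3 at P15 and 18.1 to 26.8 at P30. Cdkn2a and Cdkn2b, also below the filter, had overlapping arrays of P0 and P30. The antiproliferative gene Btg1 (1.62 ± 0.25, adjusted p = 0.002) and the stress and growth arrest genes Gadd45b (1.41 ± 0.23, adjusted p = 0.00275) and Gadd45a (1.39 ± 0.21, adjusted p = 0.0018) led the rises. Cdkn1c, an imprinted inhibitor of cyclin-dependent kinases, fell: it read 581.1 and 747.6 (Ts1Cje) and 442.5 and 399.2 (euploid) at P0, 90.0 and 64.4 (Ts1Cje) and 86.8 and 67.6 (euploid) at P15, and 39.0 and 57.1 (Ts1Cje) and 43.3 and 53.9 (euploid) at P30, and its difference between P15 and P0 was -2.71 ± 0.20 (adjusted p = 5.6e-05). Over the whole span Gadd45b (1.96), Btg1 (1.55) and Btg2 (1.07) rose most, and Cdkn1c (-3.34) and Cdkn2d (-0.51) fell.

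Of 7 tested checkpoint and repair genes 1 fell at the first step, Brca2, a gene of double-strand break repair (-0.90 ± 0.20, adjusted p = 0.011), and 0 were called at the second step or over the whole span. That 1 gene is 14.3% of the list, near the 14.4% of all tested probe sets. For genotype, 0 genes were called in each of these 5 lists, and their medians lay between -0.03 and 0.04.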

How the data were processed

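Signal intensity values were deposited by the authors as linear MAS5 signals per probe set, per the submitters' processing notes, in 1 table of 12 arrays. Array background correction and scaling were done before deposit; raw scans were not used here. Gene names came from the platform annotation: 10855 probe sets had 1 symbol, 396 several and 1237 none, and those with several named no gene. After leaving out 66 control probe sets, log2(signal + 4.6) was averaged over both hybridisations of each pool (4.6 is the 20th percentile of all values), and the 7453 probe sets with a mean signal of at least 20.1 (the 40th percentile) were tested with limma 3.58.1 in R 4.3.3 (genotype + stage, eBayes with trend, Benjamini-Hochberg over all, two-sided, threshold 0.05, 2 residual degrees of freedom). A further model held the product of genotype and postnatal day (1 residual degree). A gene was represented by its brightest probe set. The hybridisation numbers are shared by the pools, and deviations between the 2 arrays gave 15 correlations between pools. These ran from -0.12 to 0.35 with a median of 0.07, 7 over 0.1 and 1 under -0.1. Some pools thus moved together by number in part. The main fit averaged over the numbers and held no term for them. Signals on all arrays were given for members called in a stage comparison, and of other lists up to 3 rises and 3 falls per comparison. The number of pools limits the precision. The members, lists and tests were chosen with earlier results of these data known. Alternatives covered the pseudocount, filter, normalization, variance trend, probe set rule, hybridisations and pools.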

Additional observations from a re-analysis of the deposited data

Results flagged for a closer look

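In 6 of the 35 measured members, both Ts1Cje arrays lay above both euploid arrays at one stage and below them at another, which is 17.1%, and in 3 of the 23 tested ones (13%); of all tested probe sets 24.2% did so. Each stage holds 1 pool of each genotype, and the difference between stages was not tested in this form. Values are log2 differences, Ts1Cje minus euploid. Mcm4, of the replicative helicase, had 0.20 at P30 and -0.50 at P0. Dnmt1, the maintenance methyltransferase, had -0.20 at P0, 0.14 at P15 and 0.20 at P30. Cks2, the partner of Cdk1, had -0.76 at P30 and 0.16 at P0, and its 2 Ts1Cje arrays of P30 (8.0 and 2.6) differed by 0.81.

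The other 3 lay below the filter on signal. Orc1 of the origin complex had -0.28 at P15 and 0.53 at P0. Uhrf1, the guide of Dnmt1, had 0.63 at P0, 0.24 at P15 and -0.54 at P30. Kif11, the spindle motor, had 0.14 at P0, 0.31 at P15 and -0.79 at P30.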

How the results depend on the processing

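Of 29 differences between stages called for single members, 10 kept the call in all of up to 16 alternatives. The direction held in 444 of 444 values and the call in 358. Every call between P0 and P15 was lost in some alternative. They ran from Cenpa, kept in 5 of 15, Cks2 (7 of 15) and Mki67 (8 of 15) to Hmgb2 and Rrm2, each kept in 13 of 15. The number of members called between P0 and P15 (10) was 2 with the filter at the 60th percentile, where 9 members were tested, and 2 to 9 when 1 pool or 1 hybridisation was left out. Between P15 and P30 (4) it was 1 with that filter and 2 to 7 with 1 left out. Between P0 and P30 (15) it was 6 with that filter, 22 with none and 11 to 16 with 1 left out; 1 of the 14 called on the first arrays alone, Ccne1, was higher at P30. The stricter filter tests fewer members by construction; the other causes were not tested. With the pool as a random block and the hybridisation number as a replicate block the counts were 14, 7 and 17, at an estimated correlation of -0.0107 within pools, which takes the arrays of a pool as separate samples; the labels tie these numbers to no animal or day. No alternative called a member for genotype or for its change with day, and the latter could not be fitted with a pool left out. The replication median minus the mitosis median ranged from -0.05 to 0.24 between P0 and P15, from 0.33 to 0.72 between P15 and P30, and from -0.28 to -0.01 for genotype. The 12 members below the filter were tested only without it.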
